A study of Mus musculus with 56 samples.

Results

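The kidney transcriptome at ZT12, the hour at which the lights went off, was compared between mice given food only by day (daytime-restricted feeding, DRF) and mice given food only by night (nighttime-restricted feeding, NRF). Zeitgeber time (ZT) counts hours from lights-on. The comparison took every library whose labels give ZT12, which were 4 DRF and 4 NRF libraries, 8 of the 56 in the kidney series, and it ran across all genes of the table. All mice were female C57BL/6J without any engineered allele, 9 weeks old. They came to a 12 h light and 12 h dark cycle with chow and water freely available for 7 days, and then spent 7 days on DRF or NRF. RNA with a poly(A) tail was sequenced from the dissected kidney. The remaining 48 libraries are DRF and NRF kidneys from ZT0, ZT4, ZT8, ZT16, ZT20 and ZT24. The labels number the libraries of a group and do not state that each came from its own animal. The p-values therefore measure the spread between libraries of a group, which may be technical. That spread was estimated over all 14 groups of regimen and time, not from the ZT12 libraries alone. At ZT12 the DRF mice stood at the end of their light-phase feeding period and the NRF mice at the end of a light phase without food. The regimen and the time since food was last given therefore cannot be told apart here.

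The clock of each cell is a loop in which CLOCK and BMAL1 (encoded by Arntl) switch on genes through E-boxes, among them the Per and Cry genes, whose products shut that activity down, and the REV-ERB genes (Nr1d1, Nr1d2), whose products repress Arntl. Dbp, Tef and Hlf carry the rhythm on to other genes, and Nfil3 opposes them at the same sites. Feeding is a second daily signal to peripheral organs: insulin and nutrients act on FOXO, SREBP and PPAR transcription factors, which set the balance between making and burning lipid. The kidney adds its own daily rhythms of salt, water and solute transport.

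Gene positions are given on build GRCm38. Levels are given as TPM, transcript abundance per length within the library, calculated from reads recovered from the deposited table, and values for a gene are listed in the order of libraries 1 to 4 of each regimen. Differences are DRF minus NRF on the log2(TPM + 1) scale with their standard error (SE). That scale understates the change of genes near or under 1 TPM. A gene was called at an adjusted p under 0.05 in limma (Benjamini-Hochberg over all genes tested, two-sided). The 8 libraries held 24.4 to 25.2 M recovered reads each, and replicates of a regimen correlated at 0.969 or more across genes.

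Markers of other tissues and of kidney regions were unequal between the 8 libraries. Kidney identity was clear, with summed markers of the proximal tubule (10 genes recovered) between 85763 and 123940 TPM. Markers of adipose tissue (12 genes) summed to 724, 224, 308 and 845 TPM under DRF and to 5098, 436, 752 and 270.2 TPM under NRF. NRF library 1 was the highest of all 56 libraries in this sum. Its Adipoq, the adipocyte hormone gene, stood at 332 TPM against 0.779 to 40.9 TPM in the other NRF libraries. Of the 11 adipose markers tested 1 was called, Pnpla2, a lipase that other tissues also use, which fell by 0.85 ± 0.19. Inner medulla markers (5 genes) summed to 299.9, 308, 324 and 59.9 TPM under DRF and to 591, 82.0, 81.4 and 182 TPM under NRF, and thus varied within both regimens. The counts of genes called at ZT12, over all genes and by list, were therefore also taken without DRF library 4 and NRF library 1. Each is the library of its regimen highest in adipose markers, a choice made after seeing the data. DRF library 4 was also the lowest in inner medulla markers, and the groups were then smaller. Whether a call lost this way reflects adipose tissue, other traits of these libraries or the smaller groups was not tested. Counts that involve the other times, groups that do not overlap or motifs were not taken this way. In whole tissue, fewer cells of a type and less RNA per cell cannot be told apart.

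**Figure D1:**
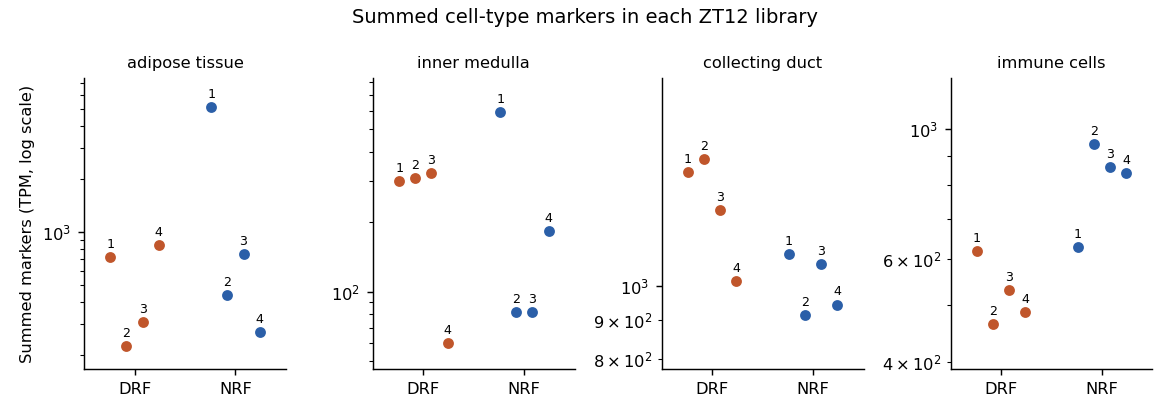
Summed level (TPM, log axis) of the markers of adipose tissue, inner medulla, collecting duct principal cells and immune cells in each ZT12 library, with the library number at each point. NRF library 1 stands highest for adipose tissue (5098 TPM), DRF library 4 lowest for inner medulla (59.9 TPM), and the regimens do not overlap for immune cells.

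At ZT12, 2538 of 13297 genes tested differed between the regimens, which is 19.1% of them. Of these, 990 were higher under DRF (7.45% of the genes tested) and 1548 were lower (11.6%). The 4 DRF libraries lay wholly above or below the 4 NRF libraries for 3002 genes (22.6%), 2069 of them among those called. Most differences were small: 26 called genes (0.196%) were at least 2-fold higher and 50 (0.376%) at least 2-fold lower. The split by direction rested on the scaling of the libraries. It was 39.0% higher among the calls with TPM, 49.5% (1530 of 3092) with median-of-ratios scaling and 56.9% (1591 of 2797) on the deposited values, while the median over all genes was -0.027 with TPM and 0.0049 with median-of-ratios scaling. Without the 2 libraries highest in adipose markers, 1579 genes were called, 741 higher and 838 lower.

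**Figure D2:**
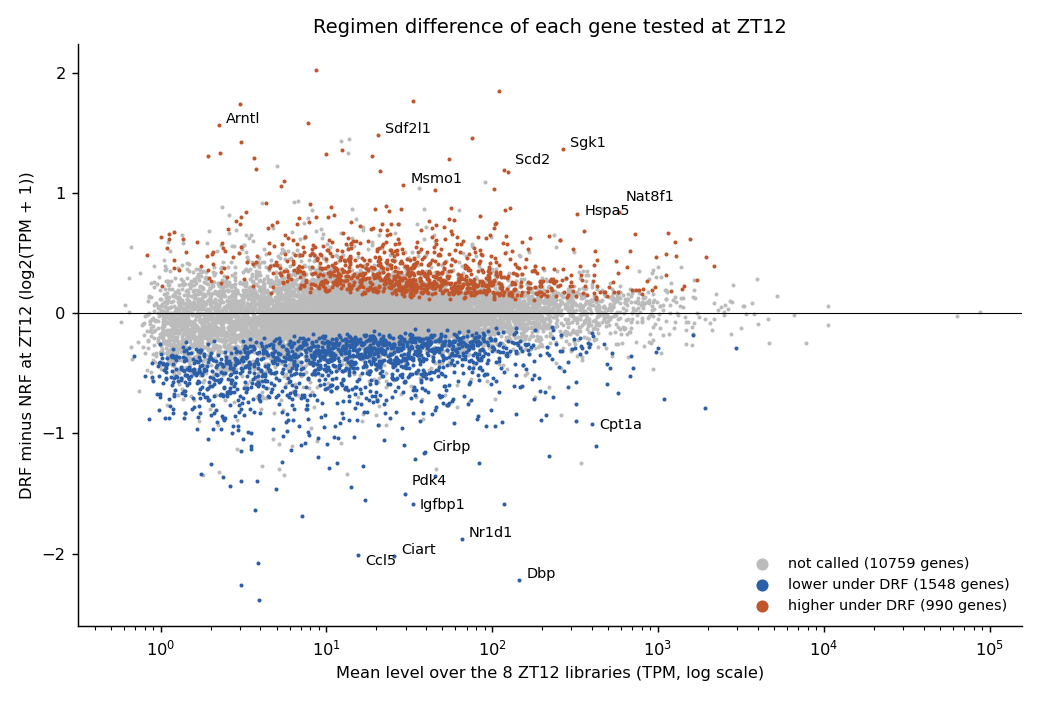
Difference between the regimens at ZT12 (DRF minus NRF, log2(TPM + 1)) against the mean level over the 8 libraries (TPM, log axis), 1 point per gene tested. The 990 genes called higher under DRF and the 1548 called lower are coloured, and labelled genes are described in the text.

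Genes of the core clock differed between the regimens in both directions. Of the 5 clock activators tested, 3 rose under DRF (Arntl, Clock and Npas2) and 1 fell (Rora), with a median of 0.45 against -0.027 over all genes. This is 60% higher and 20% lower, beside 7.45% higher and 11.6% lower over all genes. Arntl (chr7:113207465-113314126) was at 2.88, 3.75, 4.15 and 4.58 TPM under DRF and 1.41, 0.464, 0.428 and 0.35 TPM under NRF. All DRF libraries were above all NRF libraries, and the NRF group held 1 library that stood apart, library 1, at 1.41 TPM. The gene rose by 1.57 ± 0.18 (adjusted p = 1.72e-08), and over all alternatives its adjusted p ran from 3.26e-11 to 0.0294. Clock, the partner of BMAL1, rose by 0.45 ± 0.11 (adjusted p = 0.00372). Its levels were 13.9, 16.1, 15.8 and 16.7 TPM under DRF and 12.97, 11.4, 9.23 and 11.2 TPM under NRF, again without overlap. Npas2, which can stand in for CLOCK, was at 1.16, 1.14, 1.03 and 1.16 TPM under DRF and 1.12, 0.364, 0.439 and 0.25 TPM under NRF. Library 1 of NRF reached the DRF range, and the call of Npas2 (0.49 ± 0.18, adjusted p = 0.0494) was lost on leaving out any 1 library other than NRF library 1 (adjusted p 4.62e-05 to 0.149 over the alternatives). Rora, an activator of Arntl, fell by 0.71 ± 0.11 (adjusted p = 4.71e-06), with 12.7, 14.1, 12.9 and 11.9 TPM under DRF and 22.4, 23.8, 20.6 and 20.1 TPM under NRF, and the regimens did not overlap.

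The repressors lay mostly the other way. Of 10 tested, 6 fell and 1 rose, with a median of -0.67, and 5 fell and 0 rose without the 2 libraries highest in adipose markers. With all libraries 60% fell and 10% rose, beside 11.6% lower and 7.45% higher over all genes. Ciart, whose product inhibits the CLOCK and BMAL1 pair, was at 9.91, 9.47, 8.23 and 10.2 TPM under DRF and 45.02, 40.5, 43.9 and 36.4 TPM under NRF. That is 4.06-fold lower under DRF, with narrow groups far apart, and the gene fell by 2.02 ± 0.20 (adjusted p = 1.41e-09). Nr1d1 (chr11:98767932-98775333) was at 34.4, 27.1, 36.04 and 15.9 TPM under DRF and 119, 91.4, 105 and 95.6 TPM under NRF. It fell by 1.88 ± 0.26 (adjusted p = 7.16e-07), and DRF library 4, the lowest, lay furthest from NRF. Its paralog Nr1d2 fell by 0.94 ± 0.15 (adjusted p = 1.57e-05), with 70.4, 67.1, 63.4 and 49.6 TPM under DRF and 131, 119, 118 and 113 TPM under NRF. Cry2 fell by 0.66 ± 0.13 (adjusted p = 0.000296) and Bhlhe41, a repressor that binds E-boxes, fell by 1.13 ± 0.17 (adjusted p = 6.9e-06), both without overlap. The Period genes were not uniform. Per3 fell by 0.68 ± 0.21 (adjusted p = 0.0155), with 29.3, 25.6, 27.8 and 21.4 TPM under DRF and 44.6, 40.1, 43.5 and 40.4 TPM under NRF. Per1 was lower in every DRF library (41.98, 52.4, 41.8 and 52.4 TPM under DRF and 63.3, 59.99, 64.7 and 66.02 TPM under NRF), but its difference of -0.43 ± 0.29 was not called in the fit over 14 groups (adjusted p = 0.328). In the fit of the 8 ZT12 libraries alone Per1 was called, and its adjusted p ran from 0.0149 to 0.568 over the alternatives. Per2 overlapped, at 56.1, 57.05, 47.96 and 71.2 TPM under DRF and 47.01, 50.5, 51.6 and 57.7 TPM under NRF. Cry1 was the repressor that rose, by 0.60 (adjusted p = 0.0305), with 21.2, 21.1, 20.6 and 23.9 TPM under DRF and 11.4, 12.2, 16.1 and 16.97 TPM under NRF. The calls of Per3 and Cry1 were both lost without the 2 libraries highest in adipose markers and on the deposited values. Per3 was also lost without DRF library 4 alone, and Cry1 without DRF library 1, 2 or 4 or NRF library 1 or 2 (adjusted p 0.00412 to 0.15 for Per3 and 0.00589 to 0.215 for Cry1 over the alternatives).

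Among the output factors, Dbp and Tef fell and Nfil3 rose. Dbp (chr7:45705088-45710203) was at 68.3, 46.3, 57.4 and 35.4 TPM under DRF and 225, 238, 260.1 and 228 TPM under NRF, 4.64-fold lower under DRF. This was the largest fall of any gene with a mean of at least 10 TPM and groups that did not overlap, and Dbp fell by 2.22 ± 0.32 (adjusted p = 2.15e-06). Tef fell by 0.65 ± 0.12 (adjusted p = 0.000112), with groups at 152 ± 6.47 TPM under DRF against 239 ± 4.88 TPM under NRF (mean ± SD, n = 4 each). Nfil3 (chr13:52967209-52981073), the repressor that competes for the same sites, was at 23.1, 30.4, 26.2 and 37.6 TPM under DRF and 7.57, 13.2, 11.9 and 18.1 TPM under NRF. It was 2.27-fold higher under DRF, with every DRF library above every NRF library, and rose by 1.18 ± 0.19 (adjusted p = 1.02e-05). Hlf overlapped, at -0.10 ± 0.12. Among 9 kinases, ligases and close targets of the clock, 0 rose and 55.6% fell, beside 11.6% lower over all genes. The falls numbered 5 (6 falls and 0 rises at an unadjusted p under 0.05, and 5 and 0 by limma-voom). Among them were Fbxl21 (by 0.61), an F-box protein that acts on the CRY proteins, Wee1, a cell-cycle kinase (0.38), Por, which passes electrons to cytochrome P450 enzymes (0.34), and Btrc (0.19), which helps to degrade PER proteins. The count was 2 without the 2 libraries highest in adipose markers, where Btrc (adjusted p = 0.152) and Wee1 were among those lost (adjusted p 0.00645 to 0.13 over the alternatives for Wee1). Wee1 was also lost without DRF library 3 or NRF library 3, and Wee1 and Por on the deposited values (adjusted p 0.000584 to 0.157 for Por).

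The motifs that these factors bind were looked for in the 250 bases before the RefSeq start site (build GRCm38.p6) of the 10585 tested genes with a promoter on file. The E-box CACGTG, which reads the same on both strands, was in 9.63% of these promoters, in 10% of those of genes called higher and in 11.5% of those of genes called lower. Among the repressors with a promoter on file it was in 4 of 8 (Bhlhe41, Ciart, Cry1 and Per1), and Tef was the 1 output factor of 4 that had it. The ROR element TAGGTCA, searched on both strands, was in 2.16% of all promoters, and of the 12 promoters of activators and repressors none held it, while Nfil3 did. Its other form TGGGTCA was in 3.4% of all promoters and in no activator, repressor or output factor. The D-box, searched as TTA, any base and GTAA, was in 1.71% of all promoters. It was in 1.72% of those of genes called higher and 1.9% of those called lower. Among activators, repressors and output factors only Per3 held the D-box. Ciart and Nfil3 are shown as the repressor with the largest fall and the clock gene with the ROR element. Each is written 5′ to 3′ on the gene's own strand and ends at the base before the start site. The capitals mark 3 E-boxes in Ciart, which start 116, 58 and 44 bases before the start site, and in Nfil3 the ROR element on the other strand, 12 bases before it. A match is a description of these letters only.
Ciart (chr3:95882229-95882478, minus strand): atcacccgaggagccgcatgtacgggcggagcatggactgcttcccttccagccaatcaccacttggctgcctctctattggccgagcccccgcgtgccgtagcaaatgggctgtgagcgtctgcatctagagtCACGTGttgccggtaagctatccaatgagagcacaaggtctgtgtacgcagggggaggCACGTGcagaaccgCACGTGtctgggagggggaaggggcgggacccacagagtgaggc
Nfil3 (chr13:52981040-52981289, minus strand): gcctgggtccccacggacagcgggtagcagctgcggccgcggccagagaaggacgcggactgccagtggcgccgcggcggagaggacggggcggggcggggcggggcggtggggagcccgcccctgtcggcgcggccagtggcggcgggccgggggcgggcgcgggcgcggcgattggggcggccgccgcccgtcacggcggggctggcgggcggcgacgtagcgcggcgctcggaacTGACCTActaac

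**Figure D3:**
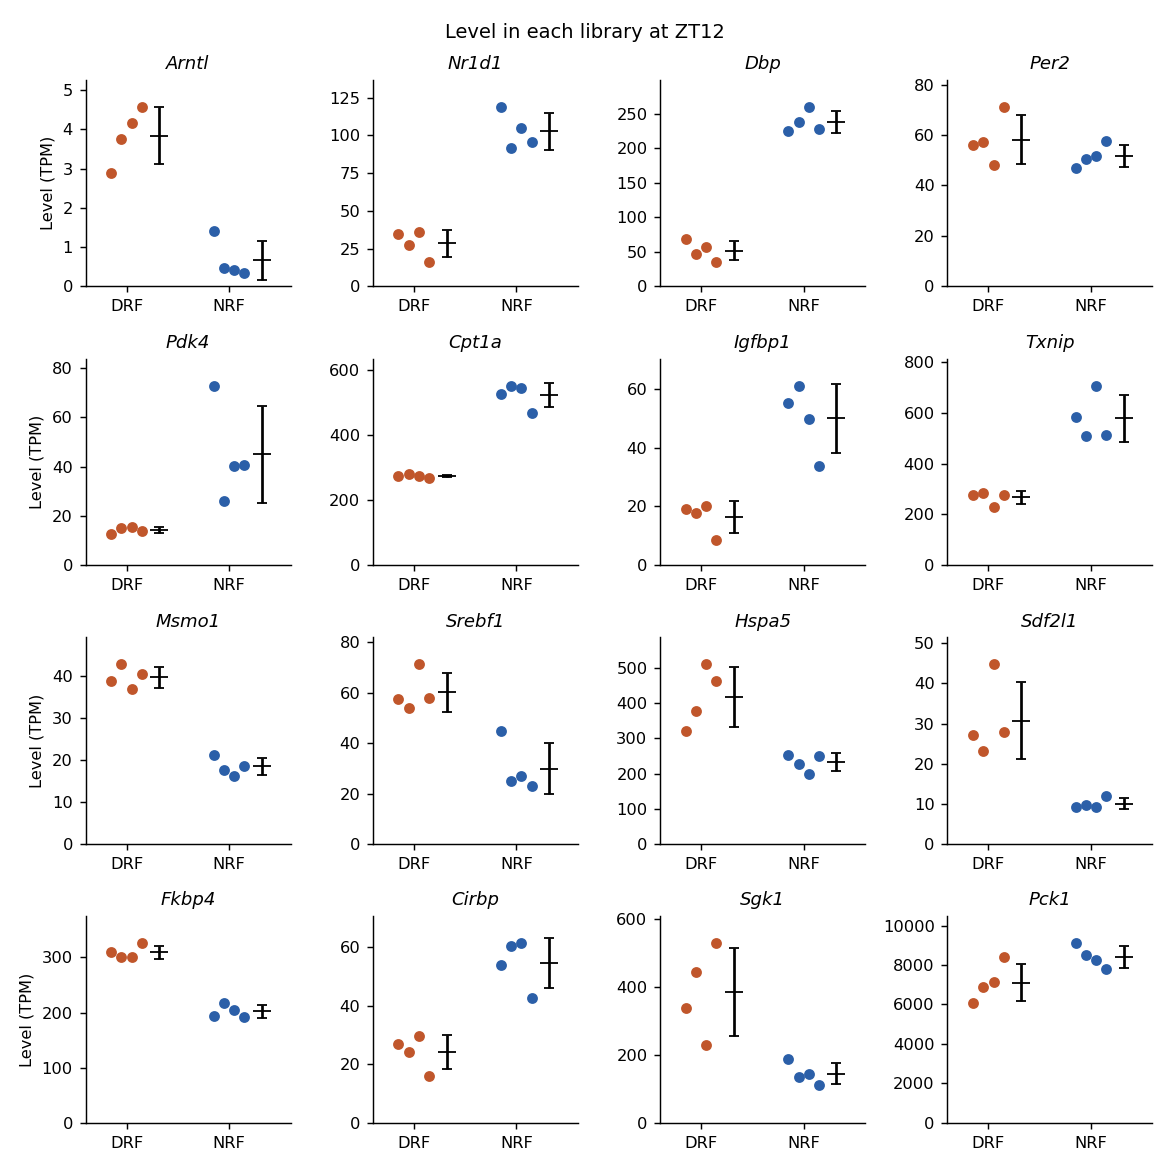
Level (TPM, linear axes from 0) of 16 genes in each ZT12 library, DRF in orange and NRF in blue in the order of libraries 1 to 4, with the mean ± SD of 4 beside them. The regimens do not overlap for Arntl, Nr1d1, Dbp, Pdk4, Cpt1a, Igfbp1, Txnip, Msmo1, Srebf1, Hspa5, Sdf2l1, Fkbp4, Cirbp and Sgk1, and they overlap for Per2 and Pck1.

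Genes of fasting fuel use were called in 1 direction, lower under DRF. Of 32 tested members of the list of PPARA targets and fatty acid oxidation genes, 16 fell and 0 rose (23 and 1 at an unadjusted p under 0.05, and 16 and 0 by limma-voom), with a median of -0.32. These 16 are 50% of the list, beside 11.6% called lower over all genes. Without the 2 libraries highest in adipose markers, 11 fell and 0 rose, with a median of -0.23. Cpt1a, which admits long-chain fatty acids to mitochondria for oxidation, was at 275, 279, 274 and 269 TPM under DRF and 526, 552, 543 and 469 TPM under NRF. The DRF libraries were nearly equal, all NRF libraries lay well above them, and Cpt1a fell by 0.92 ± 0.096 (adjusted p = 3.86e-09). Pdk4 (chr6:5483351-5496309), the kinase that keeps pyruvate out of the citric acid cycle during fasting, was at 12.6, 15.1, 15.4 and 14.05 TPM under DRF and 72.9, 26.1, 40.1 and 40.8 TPM under NRF. It was 2.83-fold lower under DRF and fell by 1.5 ± 0.33 (adjusted p = 0.000876). The NRF libraries spread widely, NRF library 1 being the highest, and without the 2 libraries highest in adipose markers the adjusted p was 0.0233 (0.000234 to 0.0337 over the alternatives). Txnip, which restrains glucose uptake, fell by 1.11 ± 0.20 (adjusted p = 8.77e-05), with 275, 285, 229.8 and 278 TPM under DRF and 584, 511, 709 and 514 TPM under NRF. Angptl4, a secreted inhibitor of lipoprotein lipase, fell by 1.21 ± 0.42 (adjusted p = 0.0355), with 20.6, 25.7, 11.6 and 23.6 TPM under DRF and 53.4, 30.7, 57.04 and 50.9 TPM under NRF. The regimens did not overlap, but the call was lost without the 2 libraries highest in adipose markers, where the difference was -1.24, and without DRF library 1 or 3 or NRF library 1, 3 or 4 alone (adjusted p 0.0177 to 0.137 over the alternatives).

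The rest of this list changed less. Slc25a20, the carrier that brings acylcarnitine into mitochondria, fell by 0.59, Ppara itself by 0.72, Acot2 by 0.73, Vnn1 by 0.66 and Ucp2 by 0.59. Smaller falls were those of the oxidation enzymes Decr1 (0.35), Hadha (0.33), Cpt2 (0.31), Eci1 (0.21) and Acadvl (0.16). The medium-chain and long-chain dehydrogenases Acadm (-0.12 ± 0.22) and Acadl (-0.15 ± 0.073) were not called, nor was the lipid droplet protein Plin2 (-0.37 ± 0.14). The calls of Ucp2 (adjusted p = 0.0752), Eci1 (0.323) and Acadvl (0.306) were lost without the 2 libraries highest in adipose markers. In all, 20 of the 32 members differed in the test of ZT12 against the other times described further on.

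Genes of cholesterol synthesis and uptake, the targets of SREBP, lay higher under DRF. Of 25 tested, 11 rose and 0 fell (14 and 0 at an unadjusted p under 0.05 and by limma-voom), with a median of 0.26. These 11 are 44% of the list, beside 7.45% called higher over all genes. Without the 2 libraries highest in adipose markers, 10 rose and 0 fell, with the calls of Nsdhl (adjusted p = 0.0791) and Sc5d (0.0603) lost and that of Mvk, mevalonate kinase, gained (0.047). Msmo1 (chr8:64718139-64733792), an enzyme of the late sterol steps, was at 38.9, 42.8, 36.97 and 40.6 TPM under DRF and 21.3, 17.7, 16.3 and 18.7 TPM under NRF. All DRF libraries lay above all NRF libraries, and Msmo1 rose by 1.07 ± 0.14 (adjusted p = 2.94e-07). Fdps, an enzyme of the isoprenoid steps, was at 29.9, 27.2, 22.7 and 22.9 TPM under DRF and 14.9, 14.5, 11.4 and 13.4 TPM under NRF. Its groups did not overlap either, and it rose by 0.87 ± 0.12 (adjusted p = 1.65e-06). Further rises were those of Idi1 (0.73), Insig1 (0.55), which holds SREBP in the endoplasmic reticulum (ER), Mvd (0.51), Dhcr7 (0.42), Nsdhl (0.42), Lss (0.37) and Sc5d (0.32). Hmgcs1, which makes the HMG-CoA that enters the pathway, differed by 0.25 ± 0.14 and was not called. The sterol response element was searched in the same promoters, on both strands, as TCAC, any base and CCAC. It was in 1.27% of all promoters and in 1 of 17 of this list, that of Hmgcs1.

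Fatty acid synthesis was mixed. Of 17 genes tested, 3 rose and 1 fell, and the median was 0.0098. The rises were 17.6% and the fall 5.88% of the list, beside 7.45% higher and 11.6% lower over all genes. Srebf1 (chr11:60199089-60222581), the transcription factor of lipogenesis, was at 57.5, 53.7, 71.2 and 57.9 TPM under DRF and 44.8, 25.1, 26.9 and 22.9 TPM under NRF. It rose by 1.02 ± 0.16 (adjusted p = 5.57e-06) with no overlap, and its highest NRF value was in library 1, the library highest in adipose markers. Scd2, a desaturase, was at 177, 179, 157 and 177 TPM under DRF and 104, 62.3, 69.6 and 71.8 TPM under NRF, and rose by 1.18 ± 0.18 (adjusted p = 6.94e-06). Fads1, a desaturase of polyunsaturated fatty acids, rose by 0.31 ± 0.092 (adjusted p = 0.0137), and Gpam, which starts triglyceride synthesis, fell by 0.56 ± 0.13 (adjusted p = 0.00133). The call of Fads1 was lost without NRF library 3 and without the 2 libraries highest in adipose markers (adjusted p 0.00574 to 0.0629 over the alternatives), where Elovl5, a fatty acid elongase, was called higher instead (adjusted p = 0.0284). The length used to recover the reads of Scd2, Fads1 and Gpam was found by search and not taken from the annotation. Both their levels and their differences between the regimens rest on it. Fasn was at 115, 39.2, 46.8 and 125 TPM under DRF and 492, 47.7, 79.1 and 19.04 TPM under NRF, and differed by -0.11 ± 0.66. Its NRF library 1 stood far above the other 7, as the adipose markers did, and the part of adipose tissue in this gene was not tested.

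Of 20 genes tested that respond to insulin and FOXO factors, 8 fell, 2 rose and 10 were not called, with a median of -0.19. Thus 40% of the list fell and 10% rose, beside 11.6% lower and 7.45% higher over all genes. Without the 2 libraries highest in adipose markers, 6 fell and 1 rose, and the calls of Cited2 (adjusted p = 0.254) and Ddit4 (0.0825) were among those lost. Igfbp1 (chr11:7197782-7202546), a secreted binding protein for insulin-like growth factors and a standard FOXO target, was at 19.2, 17.9, 20 and 8.55 TPM under DRF and 55.3, 61.2, 49.9 and 33.7 TPM under NRF. The regimens did not overlap, and Igfbp1 fell by 1.58 ± 0.22 (adjusted p = 6.87e-07). Irs2, an insulin receptor substrate, fell by 0.98 ± 0.21 (adjusted p = 0.000646), with 2.34, 3.15, 5.83 and 3.33 TPM under DRF and 7.68, 9.41, 6.95 and 7.72 TPM under NRF. Depp1, a FOXO target, fell by 1.55 ± 0.49 (adjusted p = 0.02), with 7.27, 9.39, 7.87 and 6.34 TPM under DRF and 35.3, 30.5, 29.4 and 11.01 TPM under NRF. Its groups did not overlap, but the call was lost without DRF library 4 or NRF library 1, 2 or 3 alone and without both libraries highest in adipose markers (adjusted p 0.00627 to 0.138 over the alternatives). Further falls were those of the ubiquitin ligase gene Fbxo32 (0.76), Ccng2 (0.62), the insulin receptor Insr (0.33), Cited2 (0.31) and Bnip3 (0.29). Trim63, which encodes another ubiquitin ligase of the same muscle atrophy programme, went the other way and rose by 0.82 ± 0.17 (adjusted p = 0.00035), with 14.2, 12.8, 12.8 and 18.04 TPM under DRF and 7.38, 8.82, 7.62 and 7.07 TPM under NRF. Ddit4 rose by 0.54. Foxo1 (0.063 ± 0.085) and Irs1 (-0.074 ± 0.11) were not called.

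Glucocorticoid targets did not move one way. Of 14 tested, 3 rose and 3 fell, with a median of 0.10. Each direction held 21.4% of the list, beside 7.45% higher and 11.6% lower over all genes. Sgk1 (chr10:21882184-21999903), a kinase that aldosterone and glucocorticoids induce and that raises sodium transport in the distal nephron, was at 338, 446, 231 and 529.5 TPM under DRF and 187, 136, 146 and 111 TPM under NRF. The DRF libraries varied more than 2-fold among themselves, all lay above the NRF libraries, and Sgk1 rose by 1.36 ± 0.35 (adjusted p = 0.0043). Tsc22d3 (by 0.63), an anti-inflammatory target, and the cell-cycle inhibitor Cdkn1a (by 0.88) also rose. The metallothioneins Mt2 (by 0.90) and Mt1 (by 0.59), near-identical copies whose reads may be shared, and the Krüppel-like factor gene Klf9 (by 0.43) fell. Fkbp5, a widely used target, was at 0.46 ± 0.29 and not called. The calls of Tsc22d3 (without DRF library 2 or 4 or NRF library 2) and Cdkn1a (without DRF library 4 or NRF library 2) were lost on leaving out single libraries and without both libraries highest in adipose markers (adjusted p 0.00629 to 0.129 and 0.00202 to 0.163 over the alternatives). Mt1 lost its call without both of these libraries (-0.67, adjusted p = 0.0659), and Errfi1, an inhibitor of the epidermal growth factor receptor, was called lower there (-0.55, adjusted p = 0.0107), so that 1 rose and 3 fell. The list count fell from 6 to 3 without NRF library 2.

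Chaperones of the ER formed the list with the largest share of rises. Of 20 tested members, 13 rose and 1 fell, with a median of 0.44. So 65% of the list rose and 5% fell, beside 7.45% higher and 11.6% lower over all genes. Without the 2 libraries highest in adipose markers, 12 rose and 1 fell, but Xbp1 (adjusted p = 0.106) and Dnajb9 (0.178) were no longer called, and the member that fell was Herpud1 (-0.48, adjusted p = 0.0323). Sdf2l1 (chr16:17130138-17132383), an ER-resident factor that helps folding, was at 27.1, 23.2, 44.8 and 27.9 TPM under DRF and 9.35, 9.68, 9.16 and 11.98 TPM under NRF. It was 2.802-fold higher under DRF, DRF library 3 being the highest, and rose by 1.49 ± 0.19 (adjusted p = 1.55e-07). Hspa5 (chr2:34771970-34777547), which encodes BiP, the central ER chaperone, was at 319.6, 377, 509.9 and 464 TPM under DRF and 254, 227, 198 and 251 TPM under NRF. It rose by 0.83 ± 0.15 (adjusted p = 7.91e-05), with DRF library 3 again the highest and no overlap. Manf, a secreted protein that ER stress induces, rose by 0.76 ± 0.16 (adjusted p = 0.000539) and was at 38.9, 45.8, 66.6 and 61.04 TPM under DRF and 27.7, 29.4, 28.1 and 36 TPM under NRF. Creld2 (chr15:88819646-88826683), a secreted ER stress protein, rose by 0.71 ± 0.14 (adjusted p = 0.000151) and was at 53.1, 55.7, 73.7 and 73.9 TPM under DRF and 38.8, 37.2, 35.4 and 41.7 TPM under NRF. DRF libraries 3 and 4 were the 2 highest for Hspa5, Manf and Creld2. The co-chaperone Hyou1 rose by 0.71, calreticulin (Calr) by 0.66, the disulfide isomerases Pdia6 by 0.64, Pdia4 by 0.45 and Pdia3 by 0.44, Hsp90b1 by 0.52 and Dnajb11 by 0.51. Xbp1, a transcription factor of the unfolded protein response, rose by 0.35 and Dnajc3 by 0.26. Dnajb9, a target of XBP1, fell by 0.46 (adjusted p = 0.0189), and Herpud1 (-0.35 ± 0.13), Edem1 (0.058 ± 0.09) and Sel1l (0.016 ± 0.091), which serve the degradation of misfolded ER proteins, were not called.

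The ER stress response element was searched as CCAAT followed, after any 9 bases, by CCACG, on both strands of the same 250 bases. It was in 19 of the 10585 promoters (0.179%), in 8 of the 816 of genes called higher (0.98%) and in 1 of the 1260 of genes called lower. Of 18 ER chaperone genes with a promoter on file, 9 had it (50%). These were Calr, Canx, Creld2, Derl3, Dnajc3, Ero1b, Hsp90b1, Hspa5 and Pdia6. Of them Canx (0.16 ± 0.078), Derl3 (0.39 ± 0.18) and Ero1b (-0.076 ± 0.087) were not called and the other 6 rose. The promoters of Hspa5 and Creld2 are shown as those of named genes that hold the element. Capitals mark the element, which starts 65 bases before the start site in Hspa5 and, read on the other strand, 126 bases before it in Creld2.
Hspa5 (chr2:34771840-34772089, plus strand): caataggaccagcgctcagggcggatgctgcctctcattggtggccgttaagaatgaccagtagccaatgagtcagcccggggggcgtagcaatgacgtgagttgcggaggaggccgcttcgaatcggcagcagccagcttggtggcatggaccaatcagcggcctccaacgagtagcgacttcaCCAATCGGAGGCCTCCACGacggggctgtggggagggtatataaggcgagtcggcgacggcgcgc
Creld2 (chr15:88819396-88819645, plus strand): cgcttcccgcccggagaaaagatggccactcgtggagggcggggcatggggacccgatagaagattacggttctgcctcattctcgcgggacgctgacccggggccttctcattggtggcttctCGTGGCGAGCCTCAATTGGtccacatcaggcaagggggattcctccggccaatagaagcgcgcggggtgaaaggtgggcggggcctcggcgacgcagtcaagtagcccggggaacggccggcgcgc

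Cytosolic heat shock proteins rose alongside. Of 20 tested heat shock genes of the cytosol and mitochondria, 12 rose and 0 fell (13 and 0 at an unadjusted p under 0.05 and by limma-voom), with a median of 0.47, and 11 rose without the 2 libraries highest in adipose markers, where Hspa8 lost its call (adjusted p = 0.16). The 12 are 60% of the list, beside 7.45% called higher over all genes. Fkbp4 (chr6:128429735-128438677), an HSP90 co-chaperone of steroid receptors, was at 309, 300.5, 301 and 326 TPM under DRF and 194, 218, 204 and 192 TPM under NRF. The groups were tight and clear of each other, and Fkbp4 rose by 0.61 ± 0.058 (adjusted p = 8.12e-10). Hsp90aa1, the inducible HSP90, rose by 0.69 ± 0.13 (adjusted p = 0.000155) and was at 383, 424, 428 and 515 TPM under DRF and 374, 236, 231 and 261 TPM under NRF. NRF library 1 lay just below the lowest DRF library. Chordc1, another HSP90 co-chaperone, rose by 0.70 ± 0.11 (adjusted p = 1.17e-05), and Stip1, which links HSP70 to HSP90, rose by 0.59 ± 0.095 (adjusted p = 1.29e-05). Smaller rises were those of Dnajb1 (0.58), Ahsa1 (0.55), Cacybp (0.5), Dnaja1 (0.47), Hspa8 (0.47), Hspe1 (0.37), Hsp90ab1 (0.32) and Hsf1 (0.35), the heat shock transcription factor. The stress-inducible HSP70 genes Hspa1a (0.87 ± 0.36) and Hspa1b (0.86 ± 0.54), near-identical copies whose reads may be shared, had larger differences with wide errors and were not called. The mitochondrial chaperones Hspd1 (0.16 ± 0.081) and Hspa9 (0.043 ± 0.07) were not called either, while Hspe1, the partner of Hspd1, was at 267, 244, 261 and 287 TPM under DRF and 211, 208, 194 and 205 TPM under NRF. The heat shock element, searched as GAA, TTC and GAA with any 2 bases between neighbours, on both strands, was in 0.435% of all promoters and in 2 of 15 of this list, those of Hspd1 and Hspe1. The promoter of Hspe1 is shown as the called gene with the element, and its capitals mark 2 overlapping matches, which start 89 and 84 bases before the start site.
Hspe1 (chr1:55087898-55088147, plus strand): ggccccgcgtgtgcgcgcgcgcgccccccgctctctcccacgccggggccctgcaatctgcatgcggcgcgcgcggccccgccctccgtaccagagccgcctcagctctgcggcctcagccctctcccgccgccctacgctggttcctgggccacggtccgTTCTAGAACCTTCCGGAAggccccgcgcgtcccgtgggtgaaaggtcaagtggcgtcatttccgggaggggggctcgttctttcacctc

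The cold-inducible RNA-binding protein genes went the opposite way. Cirbp (chr10:80165985-80172786) was at 26.96, 24.3, 29.6 and 16.1 TPM under DRF and 53.8, 60.3, 61.4 and 42.7 TPM under NRF. It was 2.23-fold lower under DRF, with all DRF libraries below all NRF libraries, and fell by 1.16 ± 0.14 (adjusted p = 5.42e-08). Rbm3, its close relative, fell by 0.34 ± 0.11 (adjusted p = 0.018) and was at 88.6, 77.7, 83.3 and 81.8 TPM under DRF and 99.5, 103, 112 and 106 TPM under NRF. The call of Rbm3 was lost without DRF library 2 or NRF library 3 (adjusted p 0.00743 to 0.0683 over the alternatives), which leaves 1 of the 2 genes called.

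Genes that make proteins showed smaller rises. Of 20 cytosolic aminoacyl-tRNA synthetases, which load tRNAs with amino acids, 8 rose and 1 fell, with a median of 0.15. Their shares of 40% and 5% stand beside 7.45% higher and 11.6% lower over all genes. Aars, for alanine, was at 36.4, 38.3, 40.8 and 37.1 TPM under DRF and 31.8, 27.98, 25.9 and 30.03 TPM under NRF and rose by 0.39 ± 0.07 (adjusted p = 6.85e-05), and Yars, for tyrosine, rose by 0.37 ± 0.073 (adjusted p = 0.000235). Qars, for glutamine, was the synthetase that fell, by 0.33 (adjusted p = 2.46e-06), and was at 40.4, 40.8, 38.02 and 38.5 TPM under DRF and 49.4, 52.1, 50.9 and 46.8 TPM under NRF. For Aars and Qars the regimens did not overlap. Of 20 ribosome biogenesis genes, 7 rose and 2 fell, with a median of 0.15. In shares, 35% rose and 10% fell, beside the same 7.45% and 11.6%. The rRNA processing factors Rrp12 (by 0.54), Nop2 (by 0.44), Nolc1 (by 0.42), Nop56 (by 0.40) and Fbl (by 0.32) were among those that rose. Npm1 (by 0.31) and Ncl (by 0.22), the abundant nucleolar proteins nucleophosmin and nucleolin, fell. The counts without the 2 libraries highest in adipose markers were 9 synthetases higher and 1 lower, and 6 ribosome biogenesis genes higher and 1 lower, Ncl being lost (adjusted p = 0.0926). Of 17 genes of the ATF4 and amino acid response, 2 rose and 1 fell. The rises were 11.8% and the fall 5.88% of the list, beside 7.45% higher and 11.6% lower over all genes. Atf4 itself rose by 0.52 ± 0.10 (adjusted p = 0.000254) and was at 159.8, 159, 143 and 156 TPM under DRF and 114, 103, 107 and 107 TPM under NRF, whereas its targets Asns (0.26 ± 0.32), Ddit3 (0.21 ± 0.13) and Trib3 (-0.14 ± 0.16) were not called. Psph rose by 0.27 and Sesn2, a stress-induced restraint on mTORC1, fell by 0.71 ± 0.13 (adjusted p = 6.43e-05). The call of Psph was lost without DRF library 1, 2 or 4 or NRF library 1 or 2 and without the 2 libraries highest in adipose markers (adjusted p 0.0191 to 0.171 over the alternatives), where Mthfd2, a mitochondrial folate enzyme, was called higher (adjusted p = 0.0231).

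**Figure D4:**
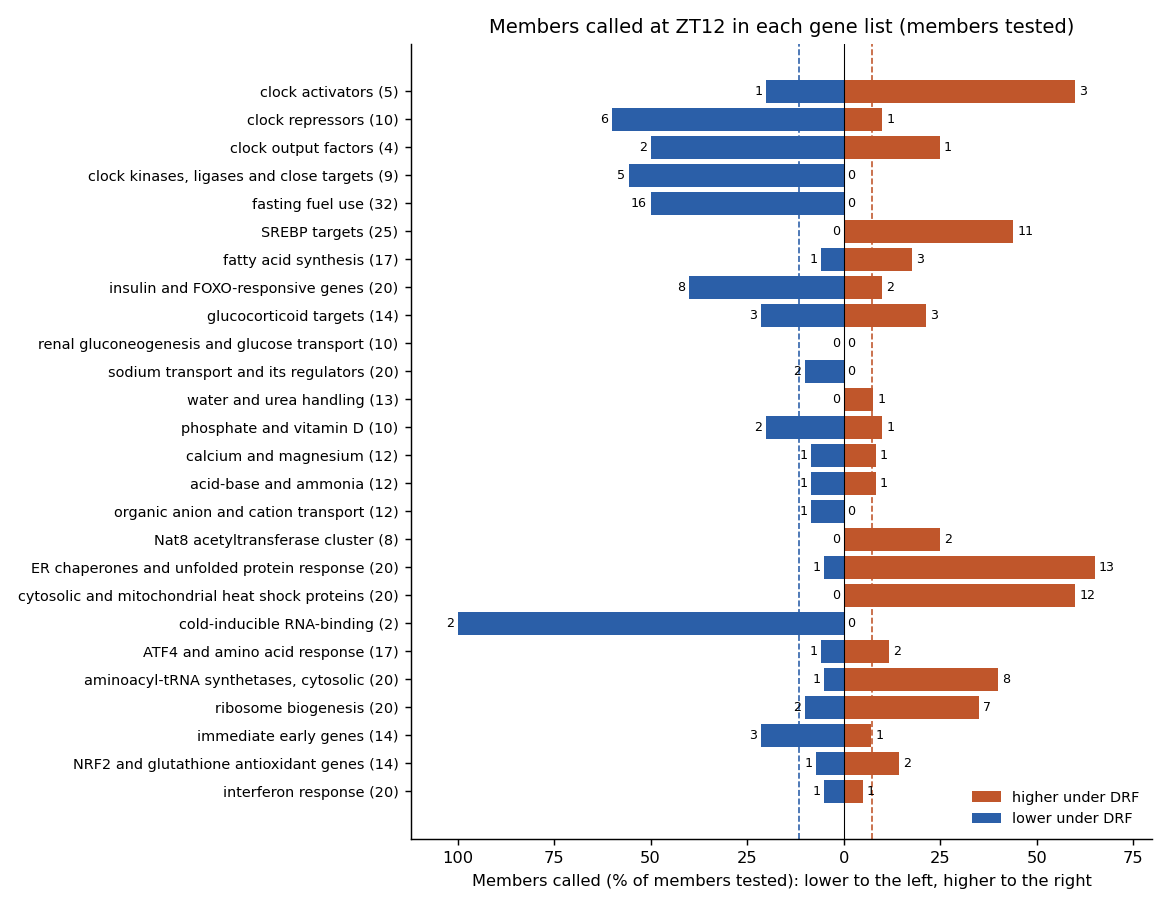
Share of the tested members of each gene list (%) called higher under DRF at ZT12 (right) and called lower (left), with the number of members at each bar and the number tested in brackets. Dashed lines give the share of all genes tested that were called higher (7.45%) and lower (11.6%). ER chaperones, heat shock proteins and SREBP targets extend to the right, and fasting fuel use, clock repressors and clock kinases to the left.

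Transport genes of the nephron were counted list by list, beside the 19.1% called among all genes. Of 20 genes of sodium transport and its regulators, 2 fell and 0 rose (5 and 0 at an unadjusted p under 0.05, and 2 and 0 by limma-voom). Scnn1b, a subunit of the epithelial sodium channel ENaC, was at 74.1, 75.2, 65.8 and 84.4 TPM under DRF and 103, 107, 120.3 and 95.9 TPM under NRF and fell by 0.51 ± 0.11 (adjusted p = 0.00087), whereas the subunits Scnn1a (0.012 ± 0.077) and Scnn1g (-0.064 ± 0.11) were not called. Slc12a3, the thiazide-sensitive cotransporter of the distal convoluted tubule, was at 246, 245, 219 and 272 TPM under DRF and 304, 348, 367 and 288 TPM under NRF, and fell by 0.41 ± 0.14 (adjusted p = 0.0399). Its call was lost with median-of-ratios scaling and without DRF library 1, 2 or 3 or NRF library 2 or 3 (adjusted p 0.0216 to 0.191 over the alternatives), and the list count was then 1 without DRF library 1 or 2 or NRF library 2 or 3. The proximal exchanger Slc9a3 (0.098 ± 0.11) and the loop cotransporter Slc12a1 (0.30 ± 0.30) were not called.

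Of 13 genes of water and urea handling, 1 rose and 0 fell (2 and 0 at an unadjusted p under 0.05, and 1 and 0 by limma-voom). It was Avpr2, the vasopressin V2 receptor of the collecting duct, at 39.5, 42.1, 37.03 and 27.9 TPM under DRF and 26.98, 13.9, 16.1 and 23.3 TPM under NRF. Every DRF library lay above every NRF library, and Avpr2 rose by 0.87 ± 0.21 (adjusted p = 0.00208). Summed markers of collecting duct principal cells, of which Avpr2 is 1 of 6, were 1414, 1468, 1258 and 1014 TPM under DRF and 1101, 913, 1069 and 944 TPM under NRF, and their part in this result was not tested. Aqp2, the vasopressin-regulated water channel, differed by 0.87 ± 0.39 and the urea transporter Slc14a2 by 1.09 ± 1.64, and neither was called. Slc14a2 is 1 of the 5 inner medulla markers summed above.

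The other transport lists held 1 to 3 calls each. For phosphate and vitamin D, 1 of 10 rose and 2 fell. Slc20a2, a phosphate transporter, fell by 0.41 ± 0.06 (adjusted p = 2.99e-06) and was at 22.3, 22.3, 24.01 and 22.3 TPM under DRF and 33.2, 32.3, 29.5 and 27.1 TPM under NRF. Slc20a1 rose by 0.40 and the vitamin D receptor Vdr fell by 0.35, while the main renal phosphate transporter Slc34a1 (0.057 ± 0.16) and Cyp27b1 (0.049 ± 0.43), which activates vitamin D, were not called. The list count was 1 without DRF library 3 or NRF library 2 or 3 and without the 2 libraries highest in adipose markers, where Slc20a1 and Vdr were lost. Slc20a1 was also lost without DRF library 3 or 4 or NRF library 1, 2 or 3, and Vdr without DRF library 1 or 3 or NRF library 2 or 3 (adjusted p 0.0197 to 0.225 and 0.00399 to 0.161 over the alternatives). For calcium and magnesium, 1 of 12 rose and 1 fell. Casr, the calcium-sensing receptor, fell by 0.45 ± 0.12 (adjusted p = 0.0045), and Cldn16, a paracellular magnesium channel, rose by 0.27. The call of Cldn16 was lost without any 1 library other than DRF library 4 (adjusted p 0.0187 to 0.158 over the alternatives), which leaves Casr alone. For acid-base and ammonia, 1 of 12 rose and 1 fell. Car4, a membrane carbonic anhydrase, was at 195, 198, 217 and 173 TPM under DRF and 139, 131, 124 and 145 TPM under NRF and rose by 0.54 ± 0.093 (adjusted p = 4.33e-05), and Atp6v1b1, a proton pump subunit of intercalated cells, fell by 0.33 ± 0.096 (adjusted p = 0.0102), a call lost on the deposited values (adjusted p 0.00596 to 0.115 over the alternatives). For organic anions and cations, 1 of 12 fell and 0 rose (2 and 0 at an unadjusted p under 0.05, and 1 and 0 by limma-voom). It was Abcb1a, a drug efflux pump that shares reads with a close paralog, and it fell by 0.58 ± 0.14 (adjusted p = 0.00244).

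Of 10 genes of renal gluconeogenesis and glucose transport, 0 passed the test in the limma fit over 14 groups, while 1 higher and 2 lower had an unadjusted p under 0.05 and limma-voom called 1 higher and 1 lower. The limma fit of the 8 ZT12 libraries alone called 1 higher and 2 lower, and median-of-ratios scaling called 1 higher. Pck1, the gene of the rate-setting enzyme, was at 6069.5, 6861, 7137 and 8382 TPM under DRF and 9103, 8497, 8268 and 7784 TPM under NRF. The regimens overlapped, and Pck1 differed by -0.25 ± 0.21 (adjusted p = 0.445). G6pc differed by 0.30 ± 0.21 and Fbp1 by -0.08 ± 0.11. Leaving out DRF library 4 or NRF library 4 gave 1 call.

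The Nat8 cluster encodes acetyltransferases of the proximal tubule with near-identical copies, so reads may be split between its members or given to the wrong one. Those of Nat8f5 came out as whole reads and not as fractions, and whether they were given to the right copy was not tested. Of 8 members tested, 2 rose and 0 fell (4 and 0 at an unadjusted p under 0.05, and 3 and 0 by limma-voom). These 2 are 25% of the members tested, beside 7.45% called higher over all genes. Nat8f1 was at 745, 775, 760.1 and 681 TPM under DRF and 311, 488, 435 and 433 TPM under NRF and rose by 0.85 ± 0.17 (adjusted p = 0.000263). Nat8f5 was at 107, 96.3, 132 and 104 TPM under DRF and 19.5, 52.7, 38.7 and 58.3 TPM under NRF, 2.74-fold higher under DRF, and rose by 1.46 ± 0.36 (adjusted p = 0.00286). Its call was lost without the 2 libraries highest in adipose markers and on the deposited values (adjusted p 2.25e-05 to 0.142 over the alternatives). The list count was 4 without NRF library 4. Of 14 tested genes of the NRF2 and glutathione antioxidant list, 2 rose and 1 fell. The rises were 14.3% and the fall 7.14% of the list, beside 7.45% higher and 11.6% lower over all genes. Hmox1, which breaks down heme, was at 48.2, 61.5, 105 and 103 TPM under DRF and 27.3, 29.6, 31.4 and 33.1 TPM under NRF and rose by 1.29 ± 0.34 (adjusted p = 0.00516). DRF libraries 3 and 4 carried most of this rise, and the adjusted p was 0.0636 without the 2 libraries highest in adipose markers (0.00085 to 0.0636 over the alternatives). Srxn1 rose by 0.46 ± 0.087 (adjusted p = 0.000118) and Slc7a9, the cystine transporter, fell by 0.52 ± 0.12 (adjusted p = 0.00198), while Nqo1 (-0.21 ± 0.16) and Gclc (0.19 ± 0.33) were not called.

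Several immune cell genes lay lower under DRF, while 11.6% of all genes tested were called lower. Of the 7 immune markers tested 5 fell, which were Ptprc (CD45, by 0.58), the B-cell receptor component Cd79a (0.54), the lysozyme gene Lyz2 (0.78), the macrophage gene Adgre1 (0.57) and Cd74 (0.66) of antigen presentation. Lyz2 (-0.74, adjusted p = 0.0831) and Cd79a (-0.46, adjusted p = 0.19) were no longer called without the 2 libraries highest in adipose markers. Csf1r, the macrophage growth factor receptor (-0.039 ± 0.15), and Itgam (-0.28 ± 0.16) were not called. The summed markers were 617, 463, 531 and 485 TPM under DRF and 628, 941, 862 and 839.9 TPM under NRF, and NRF library 1 was the NRF library nearest to DRF. The chemokine Ccl5 (chr11:83525778-83530518), which T cells and natural killer cells make, was at 7.53, 4.901, 4.75 and 4.74 TPM under DRF and 16.2, 27.02, 35.5 and 23.8 TPM under NRF. It was 4.03-fold lower under DRF without overlap, and fell by 2.01 ± 0.26 (adjusted p = 3.66e-07). Clec2h, a lectin gene of the natural killer receptor region, was at 30.5, 23.9, 19.7 and 22.7 TPM under DRF and 33.99, 74.01, 88.01 and 69.6 TPM under NRF and fell by 1.35 ± 0.30 (adjusted p = 0.000946). The part of immune cell number in Ccl5 and Clec2h was not tested. Of 20 interferon response genes, 1 rose and 1 fell, with a median of -0.32. Each direction held 5% of the list, beside 7.45% higher and 11.6% lower over all genes. Irf7, the master factor of the interferon response, fell by 1.03 ± 0.28 (adjusted p = 0.0072) and was at 10.6, 8.82, 11.2 and 6.77 TPM under DRF and 18.6, 20.7, 16.6 and 23.9 TPM under NRF. Its call was lost without the 2 libraries highest in adipose markers, and that of Rsad2, which rose by 0.37, without DRF library 1 or 3 or NRF library 1 or 2 (adjusted p 0.00123 to 0.0569 and 0.00101 to 0.104 over the alternatives). In the fit of the 8 ZT12 libraries alone, 9 of the 20 fell and 1 rose.

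Of 14 immediate early genes, 1 rose and 3 fell. The rise was 7.14% and the falls 21.4% of the list, beside 7.45% higher and 11.6% lower over all genes. Junb was at 11.9, 9.202, 14.1 and 8.02 TPM under DRF and 21.7, 16.6, 18.2 and 19.8 TPM under NRF and fell by 0.79 ± 0.17 (adjusted p = 0.000881), Fos, at 0.593 ± 0.388 TPM under DRF against 1.68 ± 0.356 TPM under NRF, fell by 0.77 ± 0.25 (adjusted p = 0.0232), Ier2 fell by 0.49 and Ier5 rose by 0.35. Egr1 was at -0.81 ± 0.38 and not called. The calls of Fos (without any 1 library other than DRF library 3 or NRF library 2), Ier2 (without DRF library 2 or 4 or NRF library 4) and Ier5 (without DRF library 1 or 4 or NRF library 1 or 2) were lost on leaving out single libraries, and the count of 4 fell to 2 without DRF library 1 or 2 or NRF library 1 and to 1 without DRF library 4. Their adjusted p ran from 0.00117 to 0.116 for Fos, 0.00873 to 0.0987 for Ier2 and 0.00164 to 0.149 for Ier5 over the alternatives. The list had 2 falls and 0 rises without the 2 libraries highest in adipose markers, with Fos and Ier5 lost.

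Outside these lists, the genes with the largest changes were mostly of other kinds. Tmem252, a membrane protein gene of unsettled role, was at 63.02, 66.3, 49.1 and 51.1 TPM under DRF and 131, 246, 174 and 161 TPM under NRF. The groups were far apart, and it fell by 1.59 ± 0.14 (adjusted p = 8.45e-11). Etv5, a transcription factor downstream of growth factor signals, was at 8.16, 7.303, 6.67 and 5.78 TPM under DRF and 19.7, 23.5, 26.3 and 14.8 TPM under NRF and fell by 1.45 ± 0.15 (adjusted p = 3.64e-09). The receptor gene Erbb3, of the epidermal growth factor receptor family, was at 8.99, 10.9, 12.2 and 6.03 TPM under DRF and 27.9, 25.4, 23.4 and 18.8 TPM under NRF and fell by 1.27 ± 0.17 (adjusted p = 6.87e-07). Klf11, a Krüppel-like factor, was at 5.08, 5.59, 5.48 and 6.23 TPM under DRF and 16.4, 12.1, 15.7 and 16.3 TPM under NRF and fell by 1.28 ± 0.24 (adjusted p = 0.000147). All 4 lay lower in every DRF library. Among the genes named here, the largest rise was that of Gm38481, a predicted gene without a chromosome in the annotation used. Its levels were 62.4, 46.98, 34.1 and 62.6 TPM under DRF and 9.26, 20.7, 12.6 and 15.8 TPM under NRF. It rose by 1.77 ± 0.27 (adjusted p = 6.65e-06). Dleu7 (chr14:62276231-62293047) was at 28.1, 24.02, 26.4 and 30.5 TPM under DRF and 8.99, 11.8, 9.99 and 11.1 TPM under NRF and rose by 1.30 ± 0.19 (adjusted p = 2.15e-06). Slc16a14, a monocarboxylate transporter family member, was at 108, 168, 145 and 237 TPM under DRF and 66.5, 61.6, 59.6 and 92.1 TPM under NRF and rose by 1.19 ± 0.32 (adjusted p = 0.0068), a call lost without the 2 libraries highest in adipose markers (adjusted p 0.00408 to 0.0808 over the alternatives). Tubb2a, a beta-tubulin, was at 136, 150.0, 137 and 128 TPM under DRF and 81.7, 69.3, 62.8 and 54.9 TPM under NRF and rose by 1.04 ± 0.15 (adjusted p = 1.32e-06), and its reads may be shared with near-identical tubulins. The length behind the TPM of Gm38481 and Tmem252 was found by search, and their levels and differences rest on it.

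The ZT12 difference of each gene was set against the mean of its differences at the other 5 clock times, with ZT0 and ZT24 counted as one. This difference of differences passed the test for 2123 of the 13297 genes (16%), and 1835 of these were also called at ZT12 itself, 797 of them higher and 1038 lower. Set against ZT8 alone, the count was 636. Among the largest in either direction, over genes with a mean of at least 10 TPM, were genes described above. Dbp differed by -2.91 ± 0.35 from the other times, Ccl5 by -2.58 ± 0.29, Ciart by -2.22 ± 0.22, Nr1d1 by -2.10 ± 0.28 and Tmem252 by -1.93 ± 0.15. In the other direction were Gm38481 at 1.96 ± 0.30, Sdf2l1 at 1.79 ± 0.20, Dleu7 at 1.55 ± 0.21 and Scd2 at 1.44 ± 0.20, all with an adjusted p of 3.98e-06 or less. A difference from that mean need not be particular to ZT12. Gm38481 differed between the regimens by 1.84 and Sdf2l1 by 1.45 at ZT4, and Scd2 by 1.11 at ZT8. Each of them was below 0 at ZT0, ZT20 and ZT24.

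The other times come from separate libraries, so their differences may be set beside those of ZT12. Of the 2538 genes called at ZT12, 1490 (58.7%) were also called in the same direction at ZT4 and 745 (29.4%) at ZT8. At ZT0, ZT20 and ZT24 the overlap was almost wholly in the opposite direction, with 989 (39.0%), 1008 (39.7%) and 1002 (39.5%) genes called the other way and 24, 21 and 9 called the same way. At ZT16 128 were called the same way and 209 the other way. Of the genes called at those times, the same-direction share was 39.9% at ZT4 and 36.0% at ZT8, and the opposite-direction share was 40.9% at ZT0, 43.8% at ZT20 and 48.8% at ZT24. In all, 369 genes were called at ZT12 and at none of the other 6 sampled times, and 44 of the 2538 had a difference of the same sign at all 7.

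**Figure D5:**
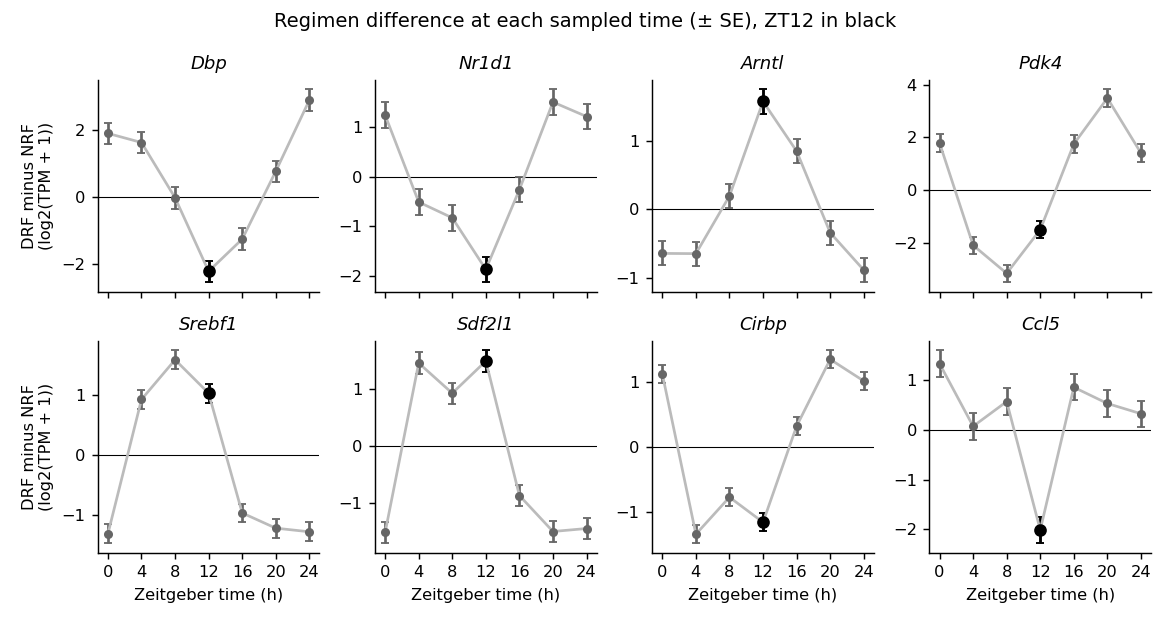
Difference between the regimens (DRF minus NRF, log2(TPM + 1), ± SE) at each sampled time for 8 genes, with ZT12 in black and a line at 0. Dbp, Nr1d1 and Ccl5 have their lowest and Arntl its highest value at ZT12, while Srebf1, Sdf2l1, Pdk4 and Cirbp keep at ZT12 the sign they have at ZT4 and ZT8 and take the other sign from ZT16.

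The course over the day differed between groups of genes. Dbp differed by -0.025 at ZT8, -2.22 at ZT12 and -1.26 at ZT16. It differed by 1.89 at ZT0 and by 2.88 at ZT24, the latter being its largest difference of either sign. Arntl took the values 0.19, 1.57 and 0.85 at ZT8, ZT12 and ZT16. For these clock genes ZT12 was the sampled time with the largest regimen difference of its sign. Pdk4 differed by -2.09 at ZT4, -3.16 at ZT8 and -1.50 at ZT12, then by 1.75 at ZT16 and 3.49 at ZT20, so at ZT12 it was already nearer to 0 than 4 h earlier. Ccl5 was low under DRF at ZT12 alone, with 0.57 at ZT8 and 0.85 at ZT16. The median of the ER chaperone list was 0.59 at ZT4, 0.10 at ZT8, 0.44 at ZT12 and -0.37 at ZT16, and that of heat shock proteins was 0.84, 0.15, 0.47 and -0.33. SREBP targets had medians of 0.52, 0.052, 0.26 and -0.013. These 3 lists were thus higher under DRF at ZT4 and ZT12 by more than at ZT8. The median of the fasting fuel list was -0.21, -0.25, -0.32 and 0.024 at the same 4 times and reached 0.57 at ZT0 and 0.36 at ZT24. The interferon list had its lowest median at ZT8 (-1.49) and its highest at ZT20 (0.015), while it was -0.32 at ZT12 against -0.53 in the ZT16 group, -0.76 in the ZT4 group, -1.05 in the ZT0 group and -0.30 in the ZT24 group. The values at ZT0 and ZT24, the same clock hour, were thus unequal. Irf7 at ZT12 was not called against the other times (0.14 ± 0.31, adjusted p = 0.819).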

How the data were processed

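Poly(A) RNA of mouse kidney was sequenced on BGISEQ-500 (paired ends). The submitters' processing notes name HISAT2, Bowtie2, RSEM, mm10 and GRCm38.p6, and give no role or version for them. The authors deposited 1 table of values named TPM for 17027 genes, held here as a score, since its values are a log transform of reads divided by gene length and not TPM. The deposited scores were solved for reads with GENCODE exon lengths, or with whole-number lengths found by search. This gave 16725 genes (98.2%). In genes counted in whole reads, 99.9% of the values came out within 0.05 of a whole read. A gene entered that class only if a share of at least 0.9 of its judged values did so. In that class, lengths found by search were picked by the same limit. The 99.9% is therefore partly set by that rule and is no separate check of the recovery. Reads were scaled to TPM. The planned design had assumed TPM, and the planned test was kept.

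Genes with a mean of at least 1 TPM over the 56 libraries (13297) entered limma 3.58.1 in R 4.3.3 (group means of 14 groups, mean-variance trend, log2(TPM + 1), pseudocount 1). The contrasts were DRF minus NRF at ZT12 and that difference minus the mean of the other 5 clock times. One NRF column at ZT24 carries a replicate number that no label has and was used only as a member of its group. The script was tested on simulated data with known changes.

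Gene lists, members and markers were chosen with earlier results of these data known. Genes named in full are the 12 largest rises and falls among called genes of at least 10 TPM with groups that do not overlap, up to 4 called members of each list with the largest difference, all clock genes, the 5 genes in each direction that differed most from the other times, and those with a printed promoter. Cpt1a, Fasn and Pck1 were added after their values were seen, and other list members are given as part of their list. Several genes of these lists are not reported here, though they stayed in the fit and in all counts. Whether the counting used strand is not given in the sources used here, so reads of overlapping antisense genes cannot be told apart. Promoters come from RefSeq (GRCm38.p6), and 10585 of the 13297 genes tested were matched there. Motif search and figures used Python 3.11.15.

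Alternatives were median-of-ratios scaling, the deposited values, a pseudocount of 0.1, a mean of at least 5 TPM or no filter, the 8 ZT12 libraries alone, limma-voom, the replicate number as a block, a 1.5-fold minimum, added unverified genes, and leaving out each ZT12 library. Using only whole-read genes and leaving out DRF library 4 with NRF library 1 were added after seeing the data.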

Additional observations from a re-analysis of the deposited data

Results flagged for a closer look

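In 16 of the 214 groups of 4 libraries that were examined, 1 library lay apart from the other 3 by more than Dixon's limit, which chance exceeds in about 1 group in 20. Among the named genes these were Scd2, where DRF library 3 was lowest at 157 TPM, and Ccl5, where DRF library 1 was highest at 7.53 TPM. Klf11 was lowest in NRF library 2 at 12.1 TPM and Arntl highest in NRF library 1 at 1.41 TPM. Npas2 was lowest in DRF library 3 at 1.03 TPM and Hlf lowest in NRF library 4 at 91.1 TPM. Wee1 was lowest in DRF library 3 at 28.2 TPM and highest in NRF library 3 at 42.7 TPM. Slc20a2 was highest in DRF library 3 at 24.01 TPM, as was Fos at 1.17 TPM. Among the marker sums, adipose tissue (5098 TPM) and brown fat (192 TPM) were highest in NRF library 1, and liver (511 TPM) was highest in DRF library 2. Proximal tubule markers were lowest in DRF library 4 at 88411 TPM and highest in NRF library 4 at 123940 TPM, and inner medulla markers were lowest in DRF library 4 at 59.9 TPM.

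A second set of results stood out because the regimen difference at ZT12 differed from the mean of the other clock times, by the test of that difference itself. These were 1.96 for Gm38481, 1.79 for Sdf2l1, 1.55 for Dleu7 and 1.44 for Scd2 on the log2(TPM + 1) scale. The values below 0 were -1.93 for Tmem252, -2.10 for Nr1d1, -2.22 for Ciart, -2.58 for Ccl5 and -2.91 for Dbp. Their errors and adjusted p-values are given with the comparison of ZT12 with the other times.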

How the results depend on the processing

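Counts of called genes moved with the strictness of the fit and with its scaling. A 1.5-fold minimum left 443 genes (116 higher, 327 lower) and 61 of the 137 list members called. Median-of-ratios scaling called 1530 genes higher and the deposited values 1591, against 990. Without DRF library 4 and NRF library 1 together, chosen after seeing the data, 1579 genes were called, 838 of them lower, and 111 list members. Leaving out each library in turn called 1895 to 2536 genes (722 to 932 higher, 1082 to 1613 lower), 116 to 136 list members, and 1619 to 2080 genes against the other times. Against ZT8 alone that last count was 636. Of 1720 values of the 91 named genes under 19 alternatives, 1570 kept their direction and side of the threshold, 149 lost the call, 1 gained it and 0 changed sign. In 50 genes nothing changed. At 4 libraries a regimen, small differences of variable genes could not be told from no difference.

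Replicate numbers are shared by the regimens. Deviations of same-numbered libraries from their group means correlated at 0.22, -0.014, -0.15 and -0.24, and 1 of the 4 numbers correlated best with its own, so the numbers were not taken to pair the libraries. With the replicate number as a block in the 8 ZT12 libraries alone, 631 genes were called (195 higher, 436 lower) and 76 list members. As a block over all 14 groups it gave 2503.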

Other observations

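Vascular markers, which belong to none of the comparisons above, held 2 calls, while 19.1% of all genes tested were called. Beyond these 2, no vascular marker was called. Of 6 endothelial markers Ehd3, of the glomerular endothelium, rose by 0.52 (adjusted p = 0.00496), and of 6 smooth muscle and mesangial markers Tagln, a smooth muscle actin-binding protein, rose by 0.63 (adjusted p = 0.0138) under DRF in limma. The summed endothelial markers ranged from 435 to 532 TPM under DRF and from 346 to 468 TPM under NRF, and the summed smooth muscle markers from 317 to 434 and from 238 to 488 TPM. Podocyte markers ranged from 319 to 371 TPM under DRF and from 312 to 364 TPM under NRF, and none of the 6 was called.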
